A study of Rattus norvegicus with 2 samples.

Results

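The core clock genes of rat liver were followed on 2 oligonucleotide arrays, 1 hybridised with liver RNA of the high-fat diet and 1 with liver RNA of the low-fat diet. All probe sets whose single gene symbol in the platform annotation was Clock, Per1, Per2, Cry2, Nr1d1, Nr1d2, Bhlhe40 or Bhlhe41 were taken, and the symbols alone chose them. They came to 13 of the 15923 probe sets in the table and to 8 of 10411 genes with a single symbol. Both groups were total RNA from SD rats labelled as 4 weeks old with 9 weeks of feeding, and both diets were made on AIN93G, a purified rodent diet. The only labelled difference was that 1 diet was high in fat and the other low. The sources used here do not give the fat content, the sex, the number of animals behind each RNA, the feeding state or the hour of collection. Each diet had a single array, so replicates were lacking, no difference could be tested, and the number of arrays limits the precision of each value.

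The hepatic clock is a loop of transcription factors that turns over about once a day. CLOCK pairs with BMAL1 and activates genes through E-box elements, among them the Per, Cry, Nr1d and Bhlhe genes. PER and CRY proteins then inhibit the pair, the nuclear receptors REV-ERBα (Nr1d1) and REV-ERBβ (Nr1d2) repress Bmal1 and other genes through ROR elements, and the proteins of Bhlhe40 and Bhlhe41 compete for E-boxes. In mouse and rat liver, Nr1d1 and Nr1d2 transcripts peak in the light phase, those of Per1, Per2, Cry2, Bhlhe40 and Bhlhe41 around the light-to-dark transition and in the early dark phase, and that of Clock, which cycles weakly, from the late dark phase to dawn. Meal times and glucocorticoids are known to set this clock in liver.

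Since the members feed back on each other through short promoter elements, the promoter windows that hold such an element are shown for 5 of them. The windows are RefSeq sequences of build GRCr8, run from 250 bases before to 50 bases after an annotated start and are written 5′ to 3′ in the direction of the gene. Capitals mark the matches to the E-box CACGTG, the E′-box CACGTT, the D-box TTATGNAA or the ROR and REV-ERB half-site AGGTCA, each searched on both strands, and no matches overlapped. The windows lie at chr10:84229405-84229704 on the minus strand (the second of 2 annotated starts of Nr1d1), chr15:9954784-9955083 on the plus strand, chr9:99496944-99497243 on the minus strand, chr4:143174200-143174499 on the plus strand and chr4:180569306-180569605 on the minus strand.
Nr1d1: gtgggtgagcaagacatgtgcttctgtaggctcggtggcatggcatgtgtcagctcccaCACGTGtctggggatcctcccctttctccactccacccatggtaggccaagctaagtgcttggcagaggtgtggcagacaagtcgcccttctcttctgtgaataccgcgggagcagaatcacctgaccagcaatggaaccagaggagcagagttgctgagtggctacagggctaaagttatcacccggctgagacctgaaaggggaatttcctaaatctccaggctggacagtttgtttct
Nr1d2: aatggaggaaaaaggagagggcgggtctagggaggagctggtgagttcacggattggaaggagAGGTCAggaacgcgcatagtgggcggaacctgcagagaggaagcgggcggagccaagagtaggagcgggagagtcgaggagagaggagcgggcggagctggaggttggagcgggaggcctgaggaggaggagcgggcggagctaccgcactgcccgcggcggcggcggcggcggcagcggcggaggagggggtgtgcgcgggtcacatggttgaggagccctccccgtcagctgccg
Per2: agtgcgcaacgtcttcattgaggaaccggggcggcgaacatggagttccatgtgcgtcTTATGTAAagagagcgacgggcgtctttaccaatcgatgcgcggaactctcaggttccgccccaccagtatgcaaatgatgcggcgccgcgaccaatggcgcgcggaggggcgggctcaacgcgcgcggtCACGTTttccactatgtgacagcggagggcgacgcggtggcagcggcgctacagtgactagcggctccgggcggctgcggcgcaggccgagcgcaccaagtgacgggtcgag
Bhlhe40: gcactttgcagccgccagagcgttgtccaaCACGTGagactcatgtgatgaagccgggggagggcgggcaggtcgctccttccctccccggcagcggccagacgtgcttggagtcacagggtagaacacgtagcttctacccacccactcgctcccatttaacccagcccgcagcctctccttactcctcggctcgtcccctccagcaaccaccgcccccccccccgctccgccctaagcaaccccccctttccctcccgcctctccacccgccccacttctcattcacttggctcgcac
Bhlhe41: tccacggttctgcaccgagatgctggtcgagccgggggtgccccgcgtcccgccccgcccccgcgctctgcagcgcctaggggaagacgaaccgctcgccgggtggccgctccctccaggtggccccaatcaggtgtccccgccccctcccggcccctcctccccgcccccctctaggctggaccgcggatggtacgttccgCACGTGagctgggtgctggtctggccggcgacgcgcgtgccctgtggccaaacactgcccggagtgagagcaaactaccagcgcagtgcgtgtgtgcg

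All 8 genes had at least 1 window and Nr1d1 and Clock had 2, which made 10 windows. The E-box was found in 3 of the 10, those of Bhlhe40, Bhlhe41 and the second start of Nr1d1, and in 6.42% of the 33469 rat promoter windows of the same length. Its shares were 10.0% among the 5525 windows of measured genes and 8.82% among the 17884 windows with a GC content of 50 to 75%. The E′-box was also found in 3 of the 10, those of Per2, Cry2 and the first start of Nr1d1, against 4.83% of all windows. In Per2 it began 62 bases before the start, and a D-box, the element bound by DBP, TEF, HLF and NFIL3, began 192 bases before it. Among the members the D-box was found in Per2 alone, and it was in 3.66% of all windows. The half-site AGGTCA was found in Nr1d2 alone among the members and in 16.2% of all windows. No window of Per1 or Clock held any of these elements. The cAMP response element TGACGTCA was in none of the 10 and in 1.83% of all windows. The GC content of the windows ranged between 29.0% at the second start of Clock and 74.3% at its first, against a median of 51.7% for all windows. These matches describe letters in short windows at annotated starts, and the arrays measured no binding. Sequence outside the windows was not searched, so a missing match does not mean that a gene lacks the element.

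**Figure D1:**
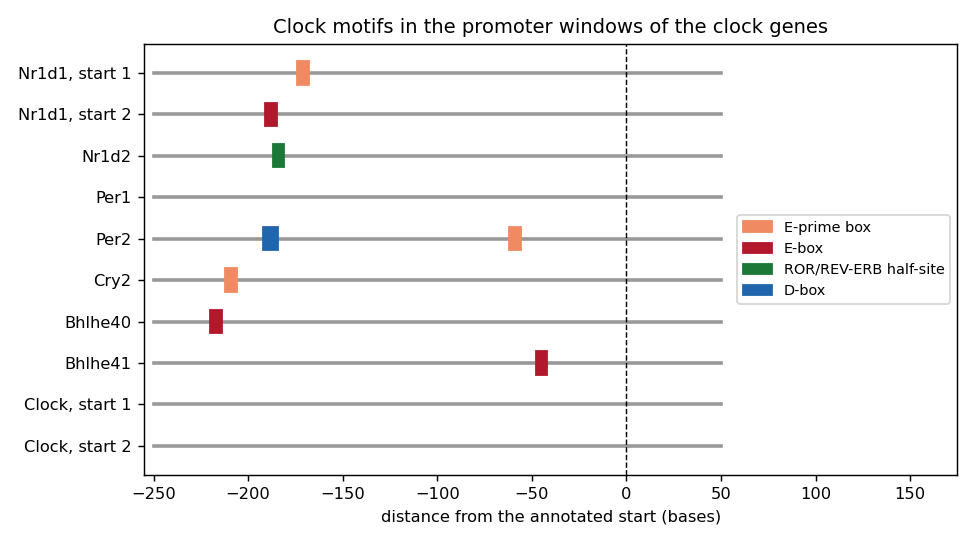
Positions of clock motifs in the 10 promoter windows of the 8 clock genes, as the distance in bases from the annotated start (dashed line). Grey lines are the windows and coloured boxes the motif matches; 7 windows hold at least 1 match, and 3 (Per1 and both starts of Clock) hold none.

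Of the 8 clock genes, 7 were measured, and all 7 had a lower signal on the high-fat array on the probe set that stood for the gene. The floor of each array was its median signal, 14 on the high-fat and 15.7 on the low-fat array, and a probe set counted as measured if its average log2 signal was at least the average of the log2 floors. Log2 ratios (high-fat over low-fat) had the median of the measured probe sets, -0.12, subtracted. The probe set with the highest mean signal stood for a gene. By sign, 50% of the 6012 measured genes were lower. The centred log2 ratios of the 7 genes lay between -0.78 and -0.16 with a median of -0.35, against quartiles of -0.20 and 0.18 over all measured genes. None of the 7 was 2-fold lower, as were 0.865% of measured genes, and 2 of the 7 were at least 1.5-fold lower, as were 5.44%. In whole-liver RNA, fewer cells of a type and less RNA per cell cannot be told apart.

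**Figure D2:**
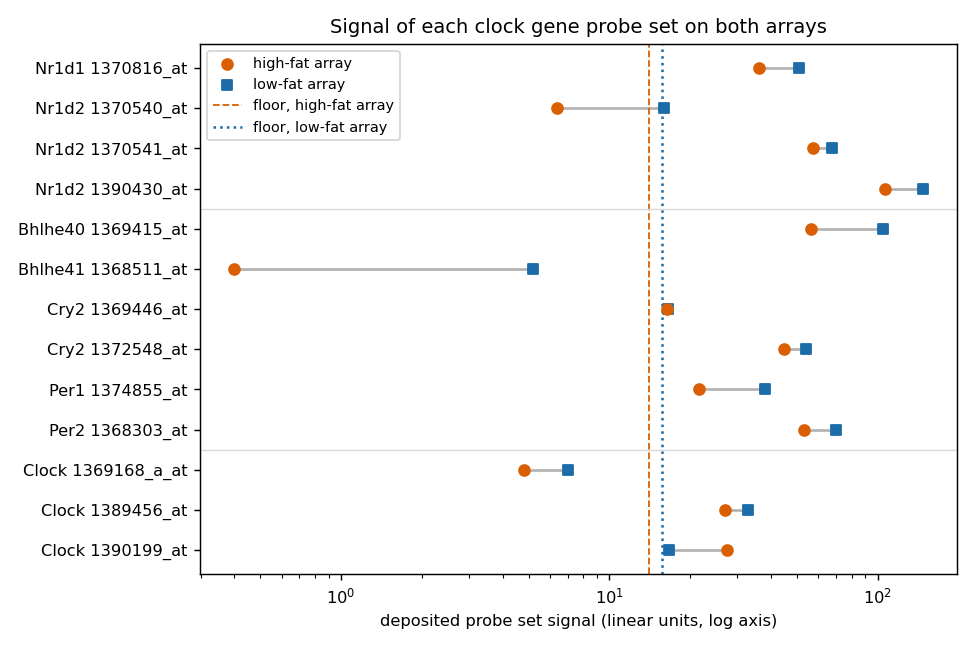
Deposited signal of the 13 clock gene probe sets (log axis, linear units) on the high-fat array (circles) and the low-fat array (squares), ordered by the phase of the transcript's peak. Before centring, 12 of the 13 have the lower signal on the high-fat array, as do 66.6% of measured genes; the 12 include 2 below both floors and Cry2 1369446_at at 16.4 against 16.5, and the exception is Clock 1390199_at, at 27.5 against 16.7.

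Among the repressors that peak around the light-to-dark transition, Bhlhe40 had the lowest ratio. Its single probe set, 1369415_at, had a signal of 56.3 on the high-fat array, against 104.7 on the low-fat array, a 1.72-fold difference (log2 ratio -0.78). Both signals were well clear of the floors, at 4.02 times the floor on the high-fat array and 6.67 times on the low-fat array. Of the 300 measured genes nearest to it in mean signal, 5 had a lower ratio, and the robust SD of the ratio among those genes was 0.25. The paralogue Bhlhe41 could not be measured. Its signals of 0.4 on the high-fat array and 5.2 on the low-fat array were both below the floor, so no fold is given for it.

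The period genes encode the proteins that carry CRY into the nucleus and inhibit CLOCK and BMAL1. Per1 had a signal of 21.6 on the high-fat array, against 37.9 on the low-fat array, a 1.62-fold difference (log2 ratio -0.69). That was closer to the floor, at 1.54 times the floor on the high-fat array, and 14 of its 300 neighbours in signal had a lower ratio. Per2 was at 53 on the high-fat array, against 70.2 on the low-fat array, a 1.22-fold difference (log2 ratio -0.29). The ratio of Per2 was about as far below 0 as the robust SD of its neighbours' ratios, 0.29, and 57 of the 300 were lower. Each period gene had 1 probe set, so neither value has a second reading on these arrays.

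Cry2, a cryptochrome that inhibits CLOCK and BMAL1, had a small difference and 2 readings that differed in sign. The probe set 1372548_at was at 44.7 on the high-fat array, against 54.3 on the low-fat array (log2 ratio -0.16). That lies within the quartiles of all measured genes, and 92 of its 300 neighbours in signal were lower. The other probe set, 1369446_at, read 16.4 on the high-fat array and 16.5 on the low-fat array, close to both floors, and its log2 ratio was 0.11 after centring and -0.0088 before it.

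Both REV-ERB genes, which peak in the light phase, had lower signals on the high-fat array. Nr1d1 was at 36.2 on the high-fat array, against 50.7 on the low-fat array, a 1.29-fold difference (log2 ratio -0.37), and 36 of 300 genes of like signal were lower. In the GRCr8 gene table Nr1d1 overlaps Thra, the thyroid hormone receptor alpha gene. Clock, Per2 and Cry2 overlap genes of long noncoding RNAs there, and none of those was measured. The 2 probe sets of Thra were at 4.8 and 14.3 on the high-fat array, against 4.5 and 8.2 on the low-fat array, and neither passed the measurement rule. Nr1d2 had 3 probe sets, all with the lower signal on the high-fat array. The brightest of them, 1390430_at, read 106.9 on the high-fat array, against 147.6 on the low-fat array (log2 ratio -0.35), and 21 of 300 neighbours were lower. The probe set 1370541_at read 57.3 on the high-fat array and 67.8 on the low-fat array (log2 ratio -0.13). For 1370540_at, which the platform annotation gives the same GenBank entry, the high-fat signal of 6.4 was below its floor and the low-fat signal of 16 was 1.02 times its floor. Against the floor it was at least 1.05-fold lower, and it was not counted as measured.

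Clock, the activator of the loop and the member that peaks from the late dark phase to dawn, had probe sets that went opposite ways. The probe set that stood for the gene, 1389456_at, read 26.9 on the high-fat array, against 32.8 on the low-fat array (log2 ratio -0.17). That too lies within the quartiles, and 122 of 300 neighbours in signal were lower. The second, 1390199_at, read 27.5 on the high-fat array, against 16.7 on the low-fat array, where it was 1.06 times the floor, and its log2 ratio was 0.84. Among its 300 neighbours 289 had a lower ratio. The third, 1369168_a_at, was below the floor on both arrays, at 4.8 on the high-fat and 7 on the low-fat array. Both measured probe sets were designed on expressed sequence tags, and which transcripts of Clock they detect was not tested. The gap between them was 1.01 on the log2 scale. Among 696 genes with more than 1 measured probe set, 2.73% had a gap as large between their brightest 2. That share covers genes of all signals. Among the neighbours of 1390199_at in signal, the robust SD of the ratio was 0.39, against 0.285 over all measured genes. Over those 696 genes, paired probe sets differed with an SD of 0.42 on the log2 scale and shared their sign in 56.9% of cases.

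By phase, the 2 light-phase genes had a median log2 ratio of -0.36, the 4 measured genes of the light-to-dark transition and early dark phase -0.49, and Clock, the single dawn gene, -0.17 on one probe set and 0.84 on the other. The 10 measured probe sets of all phases include 2 each for Clock, Cry2 and Nr1d2. Of the 10, 8 were lower and 2 were higher, with a median of -0.23, while 50% of all measured genes were lower. The higher ones belonged to Clock and Cry2 and lay at 1.06 and 1.05 times the floor on the low-fat array. The phase groups hold 1 to 4 measured genes and were not tested against each other.

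**Figure D3:**
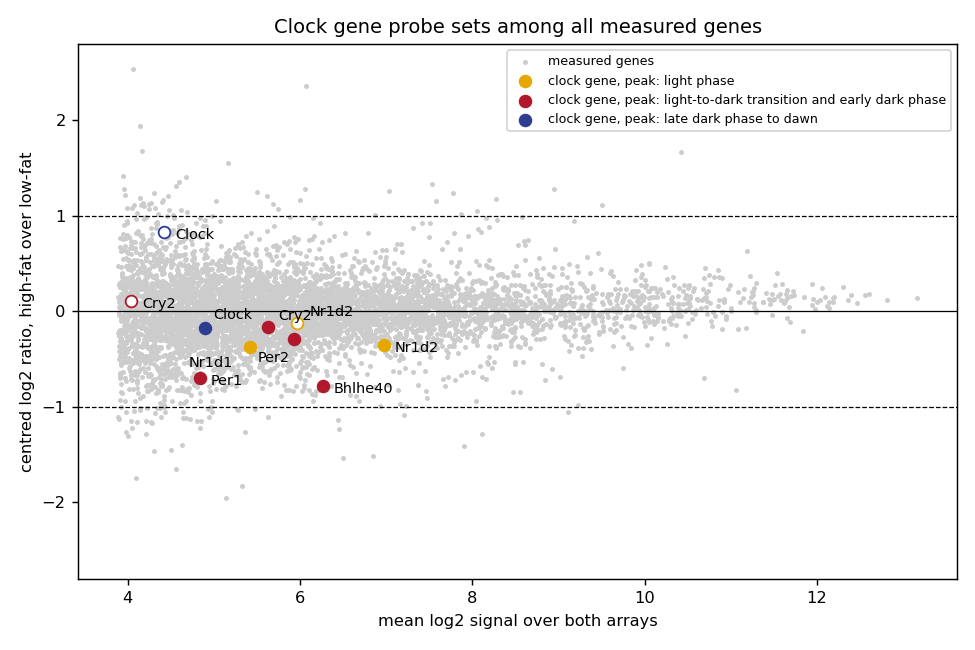
Centred ratio (log2, high-fat over low-fat) against the mean log2 signal of both arrays for the 6012 measured genes (grey) and the 10 measured clock gene probe sets (coloured by phase of peak; open circles are second probe sets). Bhlhe40 (-0.78) and Per1 (-0.69) lie toward the lower edge of the cloud, Clock and Cry2 lie on both sides of 0, and dashed lines mark 2-fold.

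The other core clock genes gave no usable ratio. Of the 10 that were listed, 4 were in the table with a single symbol and none was measured. Bmal1, the partner of CLOCK and a target of REV-ERB repression, was listed at 11.2 on the high-fat array and 1.3 on the low-fat array, both below the floor. Per3 was at 3.9 on the high-fat and 4.9 on the low-fat array, Timeless at 7.8 and 11.2 in the same order, and Rorb at 1.4 and 1.2.

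Against 50% of all measured genes, 7 of 7 measured genes listed as clock output had a log2 ratio below 0. Their median log2 ratio was -0.71, against -0.0002 over all measured genes. Por, the electron donor of cytochrome P450 enzymes, was at 369.8 on the high-fat array, against 831.4 on the low-fat array (log2 ratio -1.05). It was the one output gene past 2-fold, while 0.865% of all measured genes were at least 2-fold lower. Usp2, a deubiquitinase, was at -0.97, and the D-box activators Dbp and Hlf were at -0.71 each. Nfil3, which opposes them at D-boxes, peaks in mouse liver near dawn and is also among the REV-ERB repressed genes, was lower too, at 28.6 on the high-fat array, against 49.3 on the low-fat array (log2 ratio -0.67). Alas1, the first enzyme of haem synthesis, had the smallest difference of the list, -0.29.

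Genes described in mouse liver as repressed by REV-ERB went both ways. Of 10 listed, 4 were measured, 2 lower and 2 higher, with a median of -0.042. Insig2, which holds the SREBP escort protein in the endoplasmic reticulum, was at 446.3 on the high-fat array, against 213.9 on the low-fat array, 2.26-fold higher. Apoc3, an apolipoprotein, was at 0.086, and the remaining members were Nfil3 and Clock, whose values are given above.

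The proteins that modify or read the clock had ratios on both sides of 0. Of 11 measured clock kinases, phosphatases and ubiquitin ligases, 5 were lower and 6 higher, none past 1.5-fold, with a median of 0.0033. The kinase genes Gsk3b, Csnk1a1 and Csnk2a1 were at 0.45, 0.31 and 0.22, and Gsk3a was at 0.18. The other 2 measured probe sets of Csnk2a1 went the other way, at -0.096 and -0.27. Csnk1d, whose product phosphorylates PER, was at -0.0165 on the probe set that stood for it. Its other measured probe sets were at -0.31 and -0.091. Of 11 measured coactivators and corepressors, 5 were lower and 6 higher. Their median was 0.15, but 0.014 without probe sets that could cross-hybridise and -0.12 with the median over probe sets. The histone acetyltransferase genes Crebbp and Kat2b were at 0.59 and 0.48, Nono at 0.29, and Tbl1x, a subunit of the NCoR corepressor, at -0.60. Ncor1 itself was at 0.15, and Hdac3, the deacetylase of that complex, at 0.26.

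Inputs known to induce Per1, Per2 or Bhlhe40 acutely were described by 3 further lists. Of 7 measured immediate early genes 6 were lower, against 50% of all measured genes, and the list's median log2 ratio was -0.52. Jun was counted as lower at -0.21, but its other measured probe sets were at 0.12 and 0.70. Crem was counted as higher at 0.17, but its other measured probe sets were at -0.77 and -0.17. Egr1, Zfp36 and Ier2 were at -0.83, -0.65 and -0.52. Sik1, a kinase gene induced by cAMP, was below the high-fat floor at 10.4, against 26.2 on the low-fat array, and so at least 1.73-fold lower. Glucocorticoid-induced genes split evenly, 5 lower and 5 higher, around a median of 0.012 and over a wide range. Fkbp5, a cochaperone of the glucocorticoid receptor, was at 56.1 on the high-fat array, against 133.6 on the low-fat array, 2.20-fold lower. The metallothionein genes Mt2A, at -0.83, and Mt1, at least 1.74-fold lower with a high-fat signal below the floor, were also low, while Sgk1, a kinase gene, was at 0.92. Targets of the heat shock factor had 2 lower and 5 higher members and a median of 0.11. The small heat shock gene Hspb1 was 2.39-fold higher, at 66.9 on the high-fat array, against 30.4 on the low-fat array. Hsph1 was at 0.39, and Cirbp, a cold-inducible gene that cycles with the clock in mouse, was below both floors. The part of such inputs in the clock gene ratios was not tested.

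**Figure D4:**
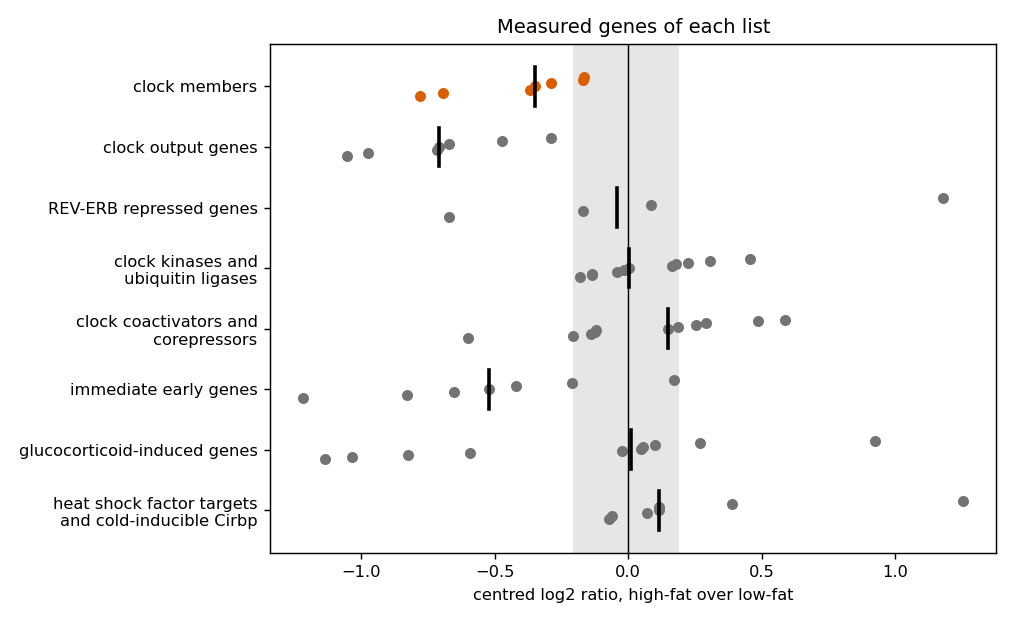
Centred ratio (log2, high-fat over low-fat) for each measured gene (points) of the clock genes and 7 related lists, with list medians as black bars and the quartiles of all measured genes as the grey band. With 1 probe set drawn per gene, the clock genes (-0.78 to -0.16) and clock output genes (-1.05 to -0.29) lie wholly below 0. The clock kinases and the coactivators and corepressors lie on both sides. Of 7 immediate early genes 6 lie below 0, against 50% of all measured genes. Other measured probe sets of Clock (0.84) and Cry2 (0.11) lie above 0 and are not drawn.

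Both arrays carried liver RNA by their markers. All 8 hepatocyte markers in the table were measured, with Alb at 9255.6 on the high-fat array and 9119.2 on the low-fat array, and their summed signal was 40718.4 on the high-fat and 40898.3 on the low-fat array. Markers of other cell types had lower summed signals. The highest was that of the erythroid markers, 1391.9 on the high-fat and 1426.3 on the low-fat array. Most of it was Hbb, at 1371 and 1406.5 in the same order, above the hepatocyte marker Tat at 709.9 and 639.1. The summed signal of 8 stellate cell markers was 321.1 on the high-fat array and 434.5 on the low-fat array. The 4 measured ones were all lower on the probe set that stood for the gene, against 50% of all measured genes. Of these, Col1a2 was below the high-fat floor at 13.2, and its other measured probe set had a log2 ratio of 0.070. Both Col1a1 probe sets, below both floors, had the higher signal on the high-fat array. Kupffer cell markers summed to 865.3 on the high-fat and 954.2 on the low-fat array, and 4 endothelial markers to 259.4 and 304.6 in the same order. All summed signals here are before centring. After centring, 3 of 7 measured Kupffer cell markers were lower and 4 higher, with a median log2 ratio of 0.0077. The 2 measured endothelial markers were both lower, with a median of -0.21. No lymphocyte marker was measured, and none of the markers in the table was at 0. The ratio of 3′ to 5′ signal, a sign of RNA integrity, was 2.85 on the high-fat and 2.69 on the low-fat array for beta-actin. The part of these differences in the clock gene ratios was not tested.

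The direction of the clock genes changed little with processing. Bhlhe40 lay between -0.90 and -0.48, Per1 between -0.81 and -0.23, Nr1d1 between -0.49 and -0.16, Per2 between -0.41 and -0.16 and the main probe set of Nr1d2 between -0.47 and -0.27 over the settings in which each could be computed. The probe sets that stood for Cry2 and Clock also stayed below 0, at most -0.0775 and -0.045. The ends of these ranges nearest 0 came with a pseudocount of 50, which pulls low signals together. Clock and Cry2 each had measured probe sets on both sides of 0, and the median over them was 0.33 for Clock and -0.028 for Cry2.

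**Figure D5:**
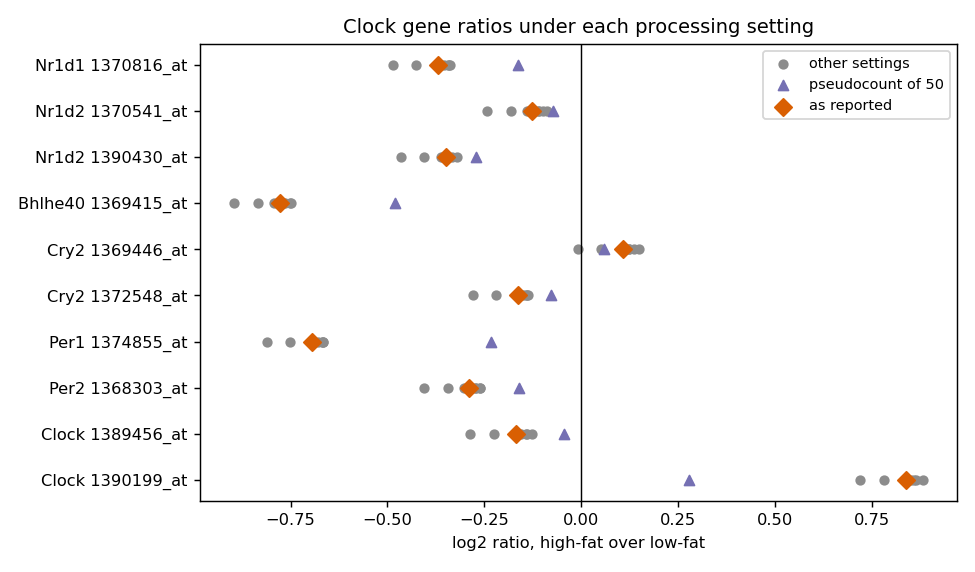
Ratio (log2, high-fat over low-fat) for the 10 measured clock gene probe sets as reported (diamonds), with a pseudocount of 50 (triangles) and under the other settings that kept the probe set (circles). Only Cry2 1369446_at crosses 0, at -0.0088 without centring.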

How the data were processed

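The values are signal intensity, 1 per probe set and array, as deposited by the authors. How they got from scanned image to intensity (background, summarisation, scaling) is not given in the sources used here. That the scale is linear was inferred: no value is negative, and the highest is 9255.6. The diet of each array was taken from the sample title. Scaling and any floor the authors applied could shift low signals most.

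Of 15923 probe sets, 57 controls were left out, and 12783 had 1 symbol, 312 several and 2771 none in the platform annotation. Symbols were checked through gene identifiers in the GRCr8 gene table, which also gave older names (Arntl for Bmal1). After 4 probe sets with a 0 were removed, log2 ratios (high-fat over low-fat) were taken with no pseudocount, and the median of the 7864 measured probe sets was subtracted. Where 1 signal was below its floor, the fold was computed against the floor and is a bound. No p-value was computed, because each diet had 1 array. Genes were called at 2-fold. The 1.5-fold count and the place among the 300 genes nearest in mean signal were added after the values were seen. The robust SD is the scaled median absolute deviation. The 10 alternatives were no centring, centring on 18 hybridization controls, quantile normalization, loess, floors at the 25th and 75th percentile, no floor, a pseudocount of 50, the median over probe sets, and leaving out probe sets whose names mark possible cross-hybridisation. From each related list, genes past 2-fold and up to 4 members with the largest ratio were named, with all other core clock genes found. Csnk1d, Ncor1, Hdac3, Alas1, Cirbp and Thra were named after their values were seen. The members, lists and rules were chosen with earlier results of these data known, so the direction of the clock genes is no independent support. The steps were run on simulated data with the same noise at every signal and with larger changes than those of the measured clock genes. That run does not cover small ratios near the floor. Python 3.11.15, numpy 2.4.6, pandas 2.3.3 and statsmodels 0.14.6 were used.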

Additional observations from a re-analysis of the deposited data

How the results depend on the processing

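With 1 array per diet, no setting gives a test, and replicate spread is unknown. A value was counted as moved where it changed by more than 0.285, the robust SD of the ratio over measured genes, which is no estimate of that spread. The count of 7 lower clock genes of 7 measured was 3 of 3 with the floor at the 75th percentile, 8 of 8 with no floor and 6 of 7 with the median over probe sets, where Clock was at 0.33. Their median lay between -0.47 and -0.16. The count at least 1.5-fold lower was 2, but 1 with the floor at the 75th percentile, 3 with no floor and 0 with a pseudocount of 50, and with no floor 1 gene was past 2-fold. The second Cry2 probe set was at -0.0088 without centring. Over the whole table, 52 genes were at least 2-fold lower and 51 higher. These counts were 318 and 244 with the floor at the 25th percentile, 10 and 15 at the 75th, 996 and 836 with no floor, 4 and 4 with a pseudocount of 50, and 78 and 33 without centring, where 66.6% of measured genes were lower. The median of clock kinases and ubiquitin ligases, 0.0033, was -0.11 without centring, -0.053 on control centring, -0.0125 with quantile normalization, -0.0095 with loess, -0.0020 and -0.020 with the lower and higher floors, -0.021 with the pseudocount and -0.043 with the median over probe sets. With that median over probe sets, coactivators and corepressors were at -0.12 (0.014 without probe sets that could cross-hybridise) and REV-ERB repressed genes at 0.21. The glucocorticoid-induced median was -0.10 without centring, -0.044 on control centring, -0.054 with quantile normalization, -0.047 with loess and -0.035 with the pseudocount, and the heat shock median was -0.0020 without centring. With the pseudocount, clock output genes were at -0.32 and immediate early genes at -0.20. Sign changes without centring follow from the shift of -0.12, and the pseudocount shrinks ratios of low signals by construction. With the median over probe sets, the REV-ERB list moved with Clock, which went from -0.17 to 0.33. The coactivator and corepressor list moved with Tbl1xr1, whose measured probe sets were at 0.19 and -0.50. The causes of the others were not tested. The gene that no floor added to the clock gene counts, and the 1 past 2-fold there, was Bhlhe41. Bhlhe41 lay below both floors and was not measured.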
